A study of Mus musculus with 2 samples.

Results

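The Mir17-92 cluster is a run of 6 microRNA (miRNA) hairpins, Mir17, Mir18, Mir19a, Mir20a, Mir19b-1 and Mir92-1, which lie in that order in the non-coding host gene Mir17hg on mouse chromosome 14. The members were taken by gene symbol, with no measured value used, though earlier results of these data were known. They are 6 of the 1973 miRNA genes counted. The libraries are miRNA sequencing of total RNA from whole newborn bladder (strain B6NCrl, postnatal day 0, with no treatment named in the labels), in a size range labelled as under 30. The 2 libraries form 1 group, 1 bladder from each of 2 pups of the same dam, called pup 1 and pup 2 after their labels, and their sex was not recorded. The design therefore gives levels in this tissue and the spread between littermates, and no contrast between conditions.

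A miRNA hairpin is cut out of a long primary transcript in the nucleus and trimmed to a short duplex in the cytoplasm, and 1 arm of the duplex guides an Argonaute protein to messenger RNAs. Pairing rests mostly on the seed, bases 2 to 8 of the arm. The Mir17-92 transcript is known to be switched on by Myc and E2F factors in dividing cells. Its miRNAs are known to hold down brakes on cell division and survival, such as Cdkn1a and Bcl2l11, and mice without the cluster die at birth with small lungs and a block in B cell development. The tables count miRNA genes alone and hold no marker of dividing cells, so the link to proliferation is background here and was not measured.

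The arms that carry the cluster's known seeds are shown first, because the seed decides which members can share targets and because likeness between arms bears on how reads were counted. They are from RefSeq on GRCm38.p6, on the plus strand, with the seed in capitals.
miR-17-5p: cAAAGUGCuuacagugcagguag
miR-20a-5p: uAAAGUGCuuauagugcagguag
miR-18a-5p: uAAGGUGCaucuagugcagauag
miR-19a-3p: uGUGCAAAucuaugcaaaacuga
miR-19b-3p: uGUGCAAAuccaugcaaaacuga
miR-92a-3p: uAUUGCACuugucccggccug

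The 6 members thus fall into 4 seed groups. Mir17 and Mir20a share the seed AAAGUGC, and their 5p arms differ by C1U and C12U, written as the base of the former, the position from the 5′ end and the base of the latter. Mir18 has AAGGUGC. Mir19a and Mir19b-1 share GUGCAAA, and their 3p arms differ by U11C alone. Mir92-1 has AUUGCAC. Among all annotated mouse hairpins in RefSeq, miR-19b-3p was also found exactly in Mir19b-2 and miR-92a-3p in Mir92-2, both on chromosome X. The other arms of the members were found exactly in no other annotated hairpin. The closest arm outside the cluster to miR-17-5p is miR-106a-5p, which differs from it by U10A alone:
miR-106a-5p: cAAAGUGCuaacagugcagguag

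All 6 hairpins lie in exon 2 of Mir17hg (plus strand) in the GENCODE M21 annotation of GRCm38, which is mm10 under another name. Mir17 (ENSMUSG00000065508.1) is at chr14:115043671-115043754, Mir18 (ENSMUSG00000065403.1) at chr14:115043851-115043946 and Mir19a (ENSMUSG00000065416.1) at chr14:115044000-115044081. Mir20a (ENSMUSG00000065442.1) is at chr14:115044157-115044263, Mir19b-1 (ENSMUSG00000076256.1) at chr14:115044305-115044391 and Mir92-1 (ENSMUSG00000076062.1) at chr14:115044427-115044506. The run spans 836 bases, and neighbouring hairpins are 35 to 96 bases apart. The Mir17 hairpin is shown with both mature arms in capitals, since a gene's count here sums reads of both arms and cannot be split between them.
Mir17 hairpin: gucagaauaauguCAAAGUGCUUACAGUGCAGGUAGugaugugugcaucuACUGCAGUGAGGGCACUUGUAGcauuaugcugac

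Pup 1 had 7460621 sense-strand gene counts and pup 2 had 3636650. Levels are given in counts per 1000000 of these (CPM), and a count of 0 allows levels up to 0.402 CPM (pup 1) or 0.825 CPM (pup 2). The tissue label was checked against markers: the smooth muscle genes Mir143 and Mir145a came to 538292 and 535290 CPM, and 6 of 6 epithelial genes were detected. Intervals are exact 95% intervals that treat each read as an independent count and cover counting error only. No molecular identifiers are named for these reads, so copies of 1 molecule cannot be told apart and the intervals may be too narrow. Errors are SDs over the pups (n = 2). A read covers a whole short RNA, so levels were not divided by hairpin length. In whole tissue, fewer cells of a type and less RNA per cell cannot be told apart.

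The cluster took 0.572% of sense-strand gene counts in pup 1 and 0.661% in pup 2, or 0.616% ± 0.063. This is 5716 CPM and 6607 CPM, from 42648 and 24026 counts. All 6 members passed the detection limit of 1 CPM and 3 counts in both pups, as did 335 genes in all, but only 4 of the 6 reached 100 CPM in both, as did 153 genes. No read of either library lay on the strand opposite any member.

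Mir17, the founding member of the miR-17 seed group, had 3227 CPM in pup 1 and 3777 CPM in pup 2 (3502 ± 388.9 CPM), rank 27 of all genes. It held 56.5% of the cluster's counts in pup 1 (interval 56.0% to 56.9%) and 57.2% in pup 2 (56.5% to 57.8%). These are shares of the counts assigned to the members, from which reads that mapped to several places are missing.

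Mir20a, which shares the miR-17 seed, had 1297 CPM in pup 1 and 1533 CPM in pup 2 (1415 ± 166.4 CPM, rank 55). Mir17 was 2.49 times Mir20a in pup 1 (2.43 to 2.55) and 2.46 times in pup 2 (2.39 to 2.54). The intervals of the pups overlap.

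Mir18, whose arm has a seed 1 base away from that of Mir17 (A4G in the arm), had 704.2 CPM in pup 1 and 761.7 CPM in pup 2 (733.0 ± 40.6 CPM, rank 78). Its share of the cluster was 12.3% in pup 1 (12.0% to 12.6%) and 11.5% in pup 2 (11.1% to 11.9%). These counting intervals do not overlap: in the library of pup 2 Mir18 was a slightly smaller part of the cluster, although its CPM was higher there.

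Mir92-1, the last hairpin of the run and the member whose seed group includes Mir25 and Mir363, had 473.0 CPM in pup 1 and 524.7 CPM in pup 2 (498.8 ± 36.5 CPM, rank 91). It held 8.27% and 7.94% of the cluster, with overlapping intervals (8.01% to 8.54% and 7.60% to 8.29%).

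The miR-19 members, known as the main drivers of the cluster's effect in mouse B cell lymphoma, were the 2 lowest members, at ranks 247 and 297 in a table with 335 detected genes. Mir19a had 80 counts in pup 1 and 31 in pup 2, or 10.7 CPM (8.50 to 13.3) and 8.52 CPM (5.79 to 12.1), with a mean of 9.62 ± 1.55 CPM. Mir19b-1 had 28 counts and 6 counts, or 3.75 CPM (2.49 to 5.42) and 1.65 CPM (0.605 to 3.59), with a mean of 2.70 ± 1.49 CPM. Both pups were low for both genes, and no value of Mir19b-1 reached the lowest value of Mir19a.

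In falling order the levels were Mir17, Mir20a, Mir18, Mir92-1, Mir19a and Mir19b-1, and both pups gave this order. No neighbours in it overlapped between pups. The smallest step was from Mir18 to Mir92-1, 1.49-fold in pup 1 and 1.45-fold in pup 2, and the gap of their means was 5.76 times the larger of their SDs. The SDs do not cover reads that mapped to several places, which are missing from these counts. The places of Mir92-1 and Mir19b-1, each with an exact copy of an arm elsewhere, are therefore uncertain. The largest step was from Mir92-1 to Mir19a, 44.1-fold and 61.5-fold. Along the transcript the levels formed no gradient, since Mir18 lies between Mir17 and Mir20a and was below both in each pup. The low Mir19a lies between Mir18 and Mir20a, and the low Mir19b-1 between Mir20a and Mir92-1.

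**Figure D1:**
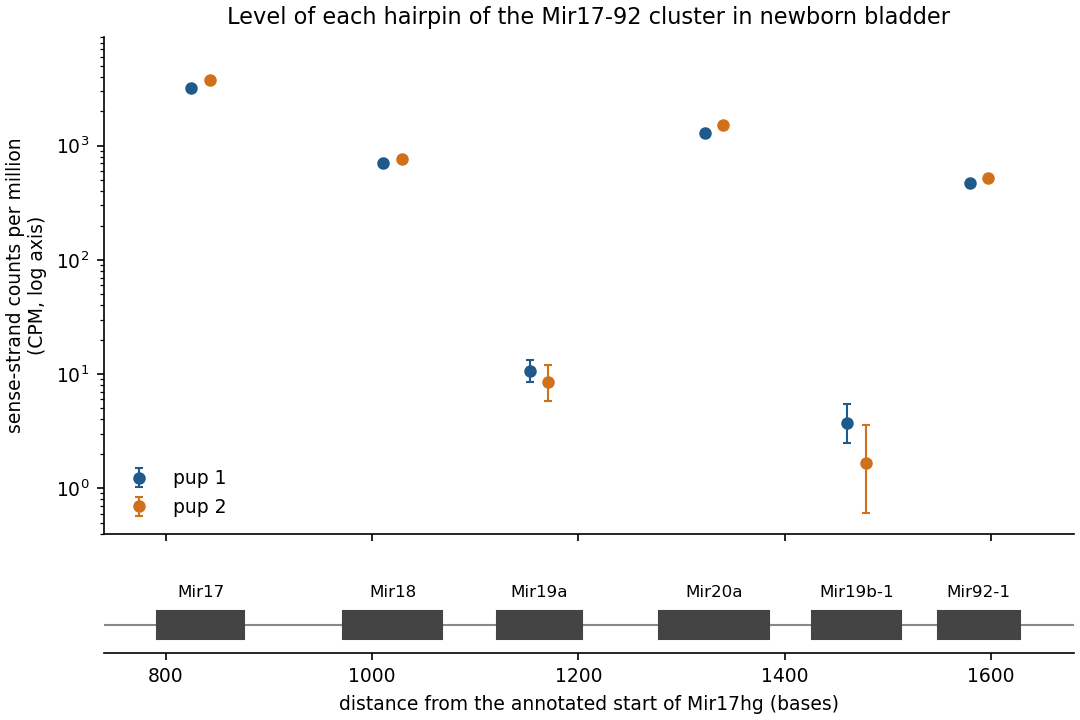
Sense-strand CPM (log axis) of each member in pup 1 and pup 2, drawn above its hairpin at its distance in bases from the annotated start of Mir17hg; points are single libraries and bars are exact 95% counting intervals, smaller than the point for the 4 abundant members. Mir17, Mir18, Mir20a and Mir92-1 lie between 473.0 and 3777 CPM, and Mir19a and Mir19b-1, placed among them on the transcript, lie between 1.65 and 10.7 CPM.

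Mir19b-1 and Mir92-1 are the members with an exact copy of an arm elsewhere, and their hairpins are shown beside their copies on chromosome X (minus strand) with the stretch that is identical around the shared arm in capitals.
Mir19b-1: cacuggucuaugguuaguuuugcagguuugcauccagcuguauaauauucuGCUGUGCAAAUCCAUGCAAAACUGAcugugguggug
Mir19b-2: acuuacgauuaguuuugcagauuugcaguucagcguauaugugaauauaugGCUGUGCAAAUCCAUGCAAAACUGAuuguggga
Mir92-1: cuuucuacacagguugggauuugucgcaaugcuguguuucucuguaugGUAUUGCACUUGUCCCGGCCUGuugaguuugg
Mir92-2: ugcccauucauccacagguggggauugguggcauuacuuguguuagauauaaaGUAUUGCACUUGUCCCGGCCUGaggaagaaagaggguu

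The identical stretch is 25 bases in the Mir19b pair and 22 bases in the Mir92 pair, and in both pairs it stops at the last base of the annotated 3p arm. Reads that mapped to several places, 22.7% of reads in pup 1 and 24.8% in pup 2, were totalled apart from the genes. Mir92-1 had 3529 and 1908 counts against 116 and 61 at Mir92-2, 30.4-fold more in pup 1 (25.3 to 36.9) and 31.3-fold more in pup 2 (24.2 to 41.1). Mir19b-1 had 28 and 6 counts against 3 and 2 at Mir19b-2, ratios of 9.33 (2.88 to 48.0) and 3.0 (0.536 to 30.4).

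Mir19a, with no exact copy of its arm, was also low. Its nearest arm, that of the Mir19b genes, is 1 base away, and the nearest arm to miR-17-5p is also 1 base away. The G and C content of miR-19a-3p is 34.8% and that of miR-19b-3p 39.1%, the same as that of miR-20a-5p, while miR-17-5p has 47.8% and miR-92a-3p 57.1%. The part of read mapping and of base composition in the low miR-19 counts was not tested. Reads of an arm that is identical in another hairpin can map to both. The levels of the Mir19b and Mir92 genes are therefore uncertain and may be too low by an unknown amount. The level of Mir19a, which has no such copy, is uncertain too, in a direction that was not tested.

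Each seed is also carried by genes elsewhere, mostly in the paralogous clusters Mir106b-25 on chromosome 5, which lies in the DNA replication gene Mcm7, and Mir106a-363 on chromosome X. For the seed AAAGUGC, the 7 annotated genes came to a sum of 7056 CPM for pup 1 and 8452 CPM for pup 2, and Mir17 with Mir20a made up 64.1% and 62.8% of this. Nearly all of the rest was Mir93, at 1217 and 1633 CPM, and Mir106b, at 1291 and 1479 CPM. Mir20a (1415 ± 166.4 CPM), Mir93 (1425 ± 294.1 CPM) and Mir106b (1385 ± 132.3 CPM) did not differ beyond the spread between pups, and Mir20a was above Mir93 in pup 1 and below it in pup 2. Mir6383, the last gene with this seed, had no count in either pup.

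For the seed AUUGCAC, Mir92-1 made up 63.0% of 751.1 CPM in pup 1 and 60.9% of 861.5 CPM in pup 2. Mir25 of the Mir106b-25 cluster followed at 167.8 and 220.8 CPM and Mir32 at 74.0 and 74.8 CPM. Mir363, Mir92-2 and Mir92b had means between 5.91 and 16.7 CPM, and Mir367 had no count.

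Genes with the remaining seeds were counted almost entirely at the cluster. Mir18 held 99.7% of the counts of genes with the seed AAGGUGC in pup 1 and 99.8% in pup 2. Its paralog Mir18b had 18 and 5 counts. Mir19a and Mir19b-1 held 97.3% and 94.9% of the GUGCAAA sum, which was only 14.9 and 10.7 CPM. The limit on reads of identical arms holds for these sums too. All the seed sums add whole genes, with reads of both arms, and do not count reads that carry the seed.

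**Figure D2:**
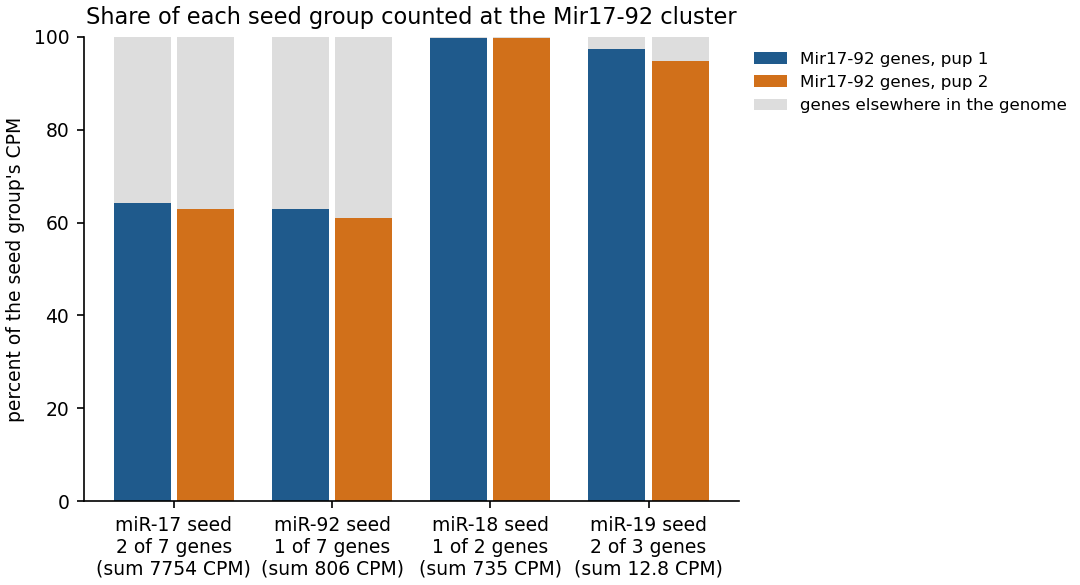
Share in percent of each seed group's summed CPM that was counted at Mir17-92 genes (coloured, 1 bar per pup) and at genes elsewhere (grey), with the mean sum of the group under the axis. The share is 64.1% and 62.8% for the miR-17 seed, 63.0% and 60.9% for the miR-92 seed, and above 94% in both pups for the miR-18 and miR-19 seeds.

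The cluster as a whole was 2.14 times Mir106b-25 in pup 1 and 1.98 times in pup 2, and 102.0 and 98.5 times Mir106a-363. Member by member, Mir17 was 238.4 times its paralog Mir106a in pup 1 (196.1 to 292.8) and 269.4 times in pup 2 (204.7 to 361.9), and Mir20a was 142.3 times Mir20b in pup 1 (112.2 to 183.5) and 96.1 times in pup 2 (74.2 to 126.7). The cluster on chromosome X carries the same 4 seeds and summed to 61.6 ± 7.83 CPM, against 6162 ± 629.5 CPM for the cluster on chromosome 14. Mir106a had 101 counts in pup 1 and 51 in pup 2, and its 5p arm differs from miR-17-5p by U10A alone. Whether reads of Mir17 were counted at Mir106a was not tested, and the intervals do not cover this.

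The spread of levels inside the cluster was set beside that of other genomic miRNA clusters, defined as annotated miRNA genes within 10 kb of each other on the same strand with at least 3 detected genes. There were 13 such clusters. The mean CPM of Mir17 was 1296 times that of Mir19b-1, with ratios of 859.9 in pup 1 (594.8 to 1294) and 2290 in pup 2 (1052 to 6240). This was the second widest of the 13, after the 2140-fold range of the 11 genes from Mir127 to Mir3070a on chromosome 12, and the median cluster had a 59.5-fold range. In the smaller Mir106b-25 cluster, Mir93 was 7.33 times Mir25. Ranges widen with the number of genes in a cluster, so this order is a description. It rests on the low miR-19 counts: taken in pup 2 alone the range ranked 1 and in pup 1 alone 5, and among genes of at least 10 CPM, which leaves out Mir19a and Mir19b-1, it was 7.02-fold and ranked 9 of 11. With every gene left out that has an exact copy of an arm in another hairpin, an alternative chosen after the data were seen, the range from Mir17 to Mir19a was 363.9-fold and ranked 3 of 12.

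**Figure D3:**
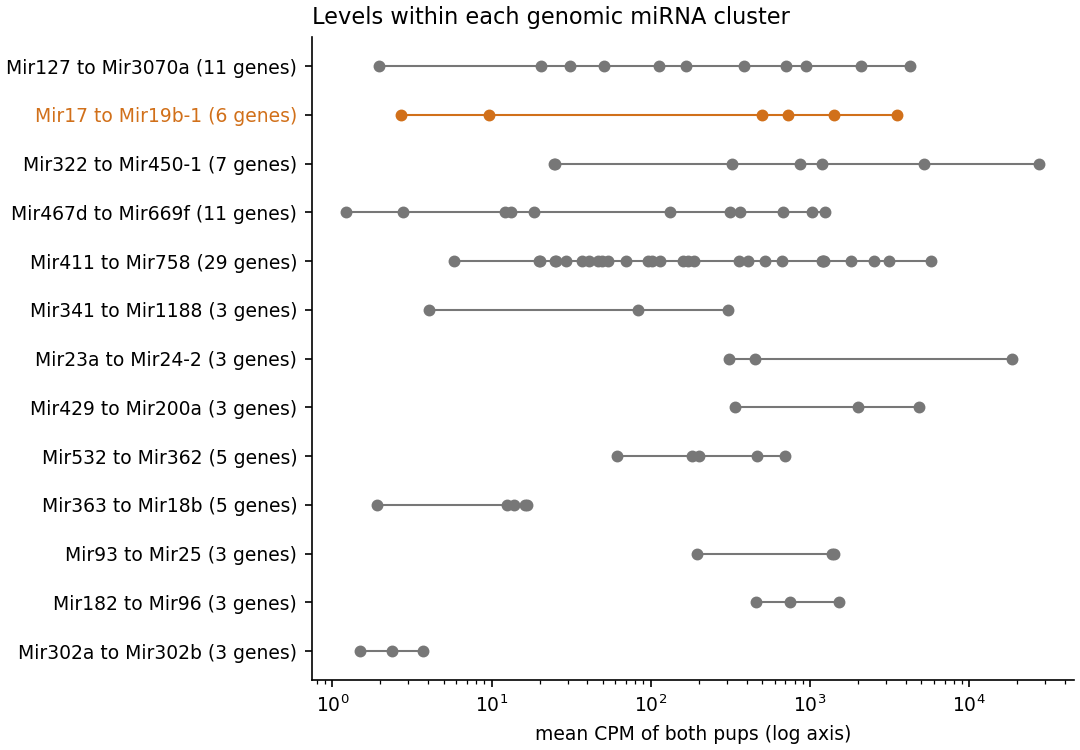
Mean CPM over both pups (log axis) of each detected gene in the 13 genomic miRNA clusters, 1 row per cluster, named by its highest and lowest gene and ordered by the range between them. Mir17-92 (orange) has 4 genes from 498.8 to 3502 CPM and a gap down to Mir19a and Mir19b-1 at 9.62 and 2.70 CPM.

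The genes outside these 3 clusters closest in level to each member were found by the smallest Euclidean distance in log2(CPM + 1) over the 2 libraries. Mir17 was closest to Mir205, a miRNA of stratified and transitional epithelium, at 3284 and 3568 CPM (distance 0.086). Mir20a was closest to Mir484 at 1241 and 1350 CPM (0.19), Mir18 to Mir532 at 678.5 and 723.5 CPM (0.092) and Mir92-1 to Mir107 at 469.4 and 498.5 CPM (0.074). Mir19a was closest to Mir346 at 11.9 and 8.52 CPM (0.14) and Mir19b-1 to Mir5618 at 4.02 and 1.37 CPM (0.18). With 2 libraries this is a likeness of level and no measure of joint regulation.

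Between the littermates, the 4 abundant members were all somewhat higher in pup 2. The log2 ratios of pup 2 over pup 1, with library sizes scaled by TMM, were 0.25 for Mir17 (counting SE 0.015), 0.26 for Mir20a (0.024), 0.17 for Mir92-1 (0.041) and 0.14 for Mir18 (0.034), or 1.10-fold to 1.20-fold. Mir19a had -0.29 (0.30) and Mir19b-1 had -1.07 (0.63). The summed cluster had 0.23. This shift was not particular to the cluster, as the sum of Mir106b-25 had 0.34 and that of Mir106a-363 had 0.29. In Mir106b-25, Mir106b had 0.22, Mir93 had 0.45 and Mir25 had 0.42. In Mir106a-363, Mir18b went the other way at -0.69, on few counts. The counting SEs do not cover the choice of scaling or filter. For the abundant members, the setting used above gave the highest ratios of those tried, and no count filter the lowest. With no count filter the ratios were 0.19 for Mir17, 0.20 for Mir20a, 0.11 for Mir92-1 and 0.07 for Mir18.

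By a two-sided exact binomial test with Benjamini-Hochberg adjustment over 362 genes, Mir17, Mir20a, Mir92-1 and Mir18 passed, 4 of the 6 members, each with the higher level in pup 2. The adjusted p of the exact test was 5.3e-57 for Mir17, 4.5e-26 for Mir20a, 0.00014 for Mir92-1 and 0.00031 for Mir18. It was 0.55 for Mir19a and 0.16 for Mir19b-1, whose 111 and 34 counts give wide counting errors. Of all tested genes 32.3% passed in either direction and 19.1% as higher in pup 2, and of the 161 genes with at least 1000 counts, a subset chosen after the data were seen, 58.4% and 33.5% did. With no count filter the call for Mir18 was lost (log2 ratio 0.07, adjusted p of the exact test 0.15, with 17.7% of 668 genes called). The 117 calls over all genes split into 69 higher in pup 2 and 48 lower, but 56 of 125 were higher with DESeq2 size factors and 59 of 123 with total counts. The 6 members kept the sign of their ratio under each of these scalings.

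This test sets 2 libraries against read counting noise and has no replicate check. With the spread of these libraries taken in as edgeR's common dispersion, a biological coefficient of variation of 13.2%, edgeR's exact test called none of the 6 members, and none had an unadjusted p under 0.05 (lowest p 0.14, for Mir19b-1). That test called 5 of the 362 genes, or 1.38%, and 17 had an unadjusted p under 0.05. The dispersion was estimated from the same difference between these 2 libraries that the test then judges, so this count describes the libraries and supports no statement about the members. The median log2 ratio was 0.16 over the 6 members, 0.03 over all 362 genes and 0.03 over the 161 genes with at least 1000 counts. The median absolute ratio was 0.26, 0.16 and 0.11. The 6 members include Mir19a and Mir19b-1, with 111 and 34 counts, so they are not matched in depth to the 161 genes. Mir17, Mir20a, Mir92-1 and Mir18, which reach 1000 counts, had ratios of 0.14 to 0.26. The members are hairpins of 1 host transcript in the same 2 libraries, so these medians are a description.

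**Figure D4:**
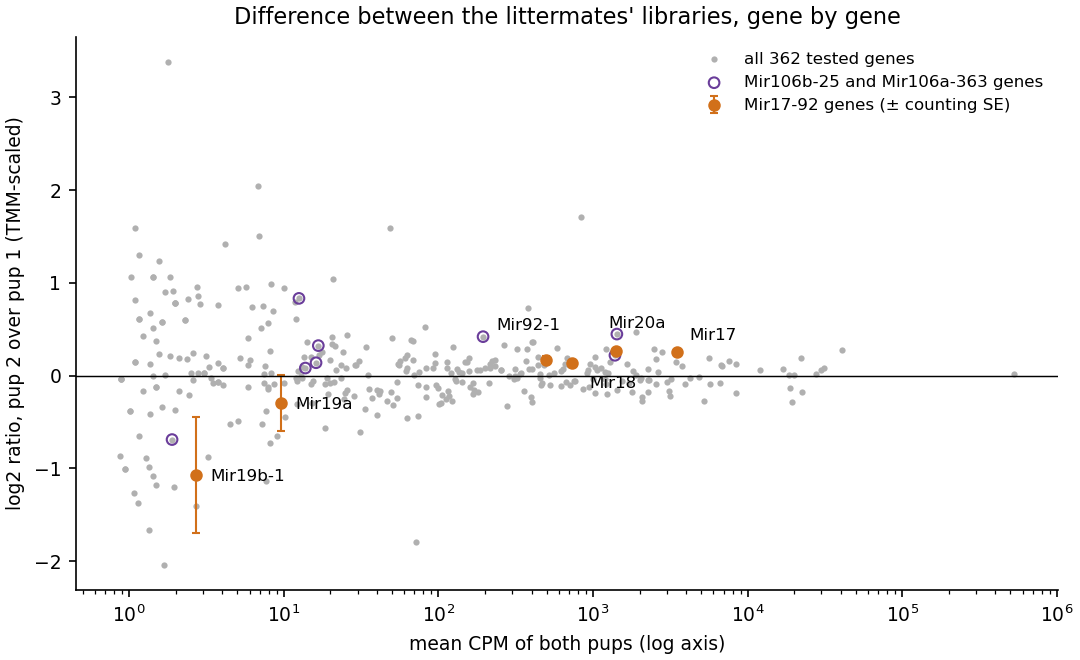
Log2 ratio of pup 2 over pup 1 against mean CPM (log axis) for all 362 tested genes (grey), with the Mir17-92 genes in orange (bars are counting SEs) and the paralogous clusters as open circles. The 4 abundant members lie between 0.14 and 0.26, and Mir19a and Mir19b-1 lie below 0 at -0.29 and -1.07 in the range where ratios of all genes scatter more widely.

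Markers of several other cell types also differed between the pups, and by the sign of the ratio alone 56.4% of the 362 tested genes were higher in pup 2. Mir223, which is most abundant in neutrophils, had 396.2 CPM in pup 1 against 1274 CPM in pup 2. All 6 blood genes with a row were detected, and their sum went from 1201 CPM in pup 1 to 2357 CPM in pup 2. The red cell gene Mir144 had 288.3 and 471.0 CPM and Mir451a 357.1 and 452.3 CPM. Mir486, also of red cells, had 53.1 and 56.9 CPM, and Mir150 and Mir155 of lymphocytes had log2 ratios of 0.16 and -0.10. The endocrine gene Mir375 had 24.4 and 72.3 CPM, and the liver gene Mir122 had 111.8 and 31.6 CPM, the higher value in pup 1. The epithelial list summed to 13437 and 13178 CPM and the endothelial gene Mir126a was at 19915 and 19646 CPM. The part of blood cells, or of these other sources, in the members' ratios was not tested.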

How the data were processed

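Small RNA libraries of 2 newborn bladders were used. The authors deposited a table of raw whole-number counts per miRNA gene for each library. Per the labels and the deposited README texts, the alignment was to mm10 with GENCODE M4 genes. Which aligner, counter and filters they used is not given in the sources used here. Both tables lack a header. The column that was the sum of the others in all 1973 genes was read as both strands. Of the others, 1 was taken as the sense strand and held nearly all gene counts. The column taken as the opposite strand held 3.17% of both-strand gene counts in pup 1 and 3.18% in pup 2. Totals of unassigned reads stayed out of library sizes: 8.19% (pup 1) and 7.32% (pup 2) of reads were unmapped, and 3.22% and 3.07% mapped outside the genes.

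Symbols came from GENCODE M21 (1894 of 1973 IDs matched) and sequences from RefSeq on GRCm38.p6, where all 6 members matched. Pups were compared per gene by an exact conditional binomial test on sense-strand counts, over genes with at least 10 counts summed (threshold 0.05, TMM in edgeR 4.0.16, R 4.3.3, prior count 0.5), since a quasi-likelihood test has no residual degree of freedom here. The script was tested on simulated data. For the exact binomial test these held counting noise alone, so they cannot show how it behaves with further spread between pups. Alternatives were total counts, DESeq2 1.42.0 size factors, no filter or 100 counts, both strands, edgeR's exact test, totals without Mir143, other cluster definitions and each pup left out. Other steps used Python 3.11.15, scipy 1.17.1, numpy 2.4.6, pandas 2.3.3 and matplotlib 3.10.9. Named genes are the members, their paralogs, the gene closest in level to each member, the ends of genomic clusters and cell type markers; Mir32, Mir92b, Mir367 and Mir6383 were added as carriers of a member's seed. The members, lists and tests were chosen with earlier results of these data known.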

Additional observations from a re-analysis of the deposited data

How the results depend on the processing

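The cluster sum of 6162 ± 629.5 CPM moved by less than 1 SD with both strands, TMM or DESeq2 scaling, and became 12963 CPM with totals that leave out Mir143, which are smaller by construction; leaving out a pup gave 5716 to 6607 CPM. The 4 calls between pups remained 4 in count with total counts, DESeq2 size factors, 100 counts and both strands, became 3 with no filter, and became 0 with edgeR's exact test, whose calls over all genes were 5 in place of 117; it adds the spread between the same libraries to counting noise by construction. No member's ratio changed sign where it was tested; at 100 counts Mir19b-1 was not, leaving 5 members. The rank of the range from Mir17 to Mir19b-1 among genomic clusters was 2 and stayed so with gaps of 3 kb and 50 kb and both strands; it was 1 to 5 when a pup was left out and 9 at 10 CPM, which removes the miR-19 genes. The range itself was 859.9-fold to 2290-fold with 1 pup. A planned search of the genome for copies of the arms was not run, and annotated hairpins were searched in its place. No paired analysis was possible because both samples belong to 1 group. Depth limits Mir19b-1, with 28 and 6 counts, most.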
